A study of Mus musculus with 10 samples.

Results

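The change in gene expression in the wild-type (WT) mouse testis between postnatal day 4 (P4) and postnatal day 7 (P7) was measured by RNA-seq, from all libraries labelled WT at these ages. These were 4 of the 10 libraries of the series, 2 at each age. The P4 WT and P7 WT mice were of the C57BL/6 strain and untreated as far as the labels say, and the remaining 6 libraries came from a conditional knockout of Lsm7 (cKO, genotype label Lsm7-flfl-stra8), 3 at each age. The cKO libraries entered the estimate of spread and a test of whether the course differed between the genotypes. The label of the cKO names Stra8, a gene of germ cells entering differentiation, and the sources used here do not say more of the allele that drove the deletion. The labels give the tissue as testis and the cell type as germ cell, and RNA was extracted from testis with TRIzol with no sorting step named, so transcripts of every testicular cell type were read. Fewer cells of a type and less RNA per cell cannot be told apart in such bulk samples.

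In the first postnatal week the germ cells of the mouse testis leave quiescence, move to the basement membrane of the tubules and become spermatogonia. Some of these keep the stem cell state under signals such as GDNF, while others respond to retinoic acid, switch on Stra8 and Kit and begin the differentiation that leads to meiosis. Over the same days the Sertoli cells, which nurse the germ cells, still divide and mature, fetal Leydig cells give way to progenitors of the adult population, and the growing tubules take up a larger part of the organ.

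Sequencing gave 28.8 and 33.0 M reads for P4 WT, and 28.9 and 30.0 M for P7 WT. Between the P7 WT libraries, the chi-square of the counts divided by its degrees of freedom was 1.98 (16103 genes), against 61.43 for the P4 WT pair and 23.49 to 122.88 for cKO pairs of 1 group. From 67.8% to 80% of counts under 50 were even numbers, so that each pair of mates was probably entered as 2 reads, and a ratio near 2 is then what counting noise alone gives. The P7 WT libraries were therefore summed and counted as 1 sample, which left WT with 3 samples, 2 of them from P4. A single sample has no spread of its own, and that of the other groups was assumed for it. The labels do not state separate animals, and all p-values refer to the spread among the samples at hand, whose origin may be technical. The label of germ cells was checked against markers of other cells: Sox9, Amh, Hsd17b3, Des and Pecam1, markers of Sertoli, Leydig, peritubular and endothelial cells, were all read in every WT library, while the haemoglobin genes Hbb-bs, Hbb-bt, Hba-a1 and Hba-a2 had no read. Levels are given in CPM, read counts scaled to 1 M reads of a library. Lsm7 stood at 36.2 and 25.7 CPM in WT at P4 and at 33.3 and 33.4 CPM at P7, a log2 fold change of 0.11 (SE 0.39, edgeR adjusted p = 0.865). Its sign turned without P4 WT library 2 (log2 -0.12).

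The P7 WT libraries stood apart in base composition. Over genes, their level relative to the mean of all libraries was 1.0 log2 units higher in the eighth of genes with the lowest GC content of exons than in the eighth with the highest, in both P7 WT libraries, while this difference lay between -0.5 and 0.17 in the other 8. The median log2 fold change from P4 to P7 in WT ran from 0.57 in the eighth of lowest GC (29.63% to 43.63%) to -0.53 in the eighth of highest GC (57.57% to 82.19%). At an edgeR adjusted p under 0.05, which 11.8% of all tested genes passed as higher and 9.97% as lower, 621 genes rose and 59 fell in the former, and 103 rose and 541 fell in the latter. In the cKO libraries the medians of the same eighths lay between -0.03 and 0.06. Each result below was therefore also computed with offsets for exon length and GC content fitted in each sample, under which the medians of the WT eighths lay between -0.10 and 0. As the P7 WT libraries are 1 sample, stage and this property of the libraries cannot be told apart gene by gene. The plot of change against base composition shows both.

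**Figure D1:**
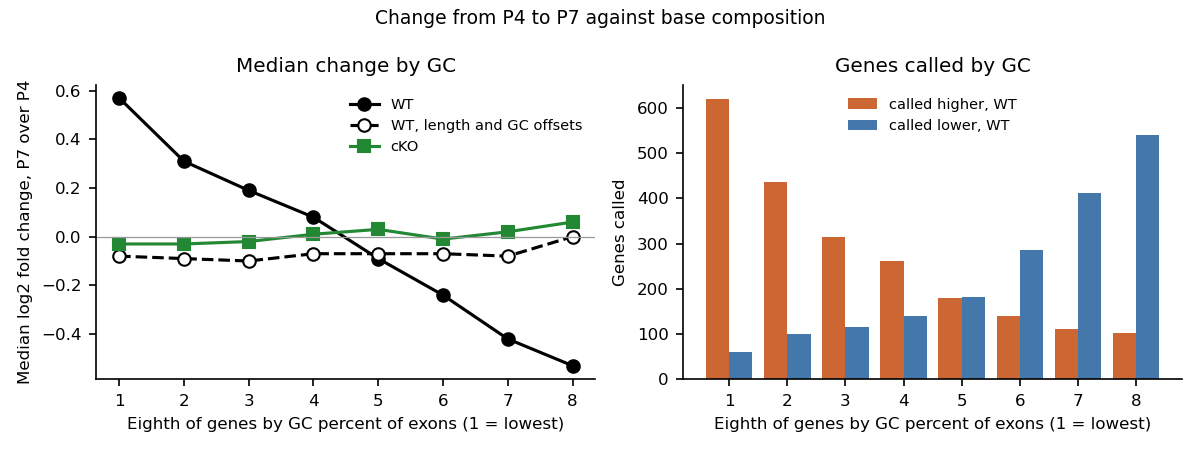
Left: median log2 fold change from P4 to P7 (y axis) in each eighth of tested genes by GC percent of exons (x axis, 1 is the lowest), for WT without and with offsets and for cKO. Right: genes called higher or lower in WT per eighth. The WT median went from 0.57 to -0.53 across the eighths while the cKO median stayed between -0.03 and 0.06.

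From P4 to P7 the WT testis gained transcripts of germ cells and spermatogonia, of meiotic prophase, of the piRNA pathway and of Sertoli cell junctions, and lost transcripts of blood vessels, of interstitial cells and their matrix, of the imprinted growth network and, at very low levels, of spermatids. Of 18419 genes tested, 2179 rose (11.8%) and 1837 fell (9.97%) at an edgeR adjusted p under 0.05, so that 21.8% were called. Called genes changed by a median of 1.35 log2 units in size (median SE 0.31), and the median over all tested genes was -0.03. With offsets 1477 genes rose (8.02%) and 1586 fell (8.61%), and 2412 genes were called in the same direction with and without them. The counts rested on single libraries. Without P4 WT library 1, 614 genes rose and 573 fell, and without P7 cKO library 1, which entered only through the shared spread, 3290 rose and 3025 fell. Gene lists below are described by their counts and median beside these background values and were not tested as sets. List counts for a fit without a library are to be read against the counts of all genes in that fit, which moved too. Without P4 cKO library 2, 1726 genes rose and 1416 fell. Without P4 WT library 2 the counts of all genes stayed within 1.5 times those reported. Fits without a P4 WT library keep 1 WT sample at each age, so their list counts are rough. Some lists share members, such as the general germ cell, piRNA and meiotic lists, and their counts are not independent. A lack of overlap between the ages, given below for single genes, is weak evidence because the P7 WT libraries are 1 sample. It was also found for genes that did not pass, such as Rhox5 (edgeR adjusted p = 0.713) and Star (0.120). For the largest rises and falls it was a condition of naming. The share of all tested genes without overlap is not given. The plot of gene lists gives all 25.

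**Figure D2:**
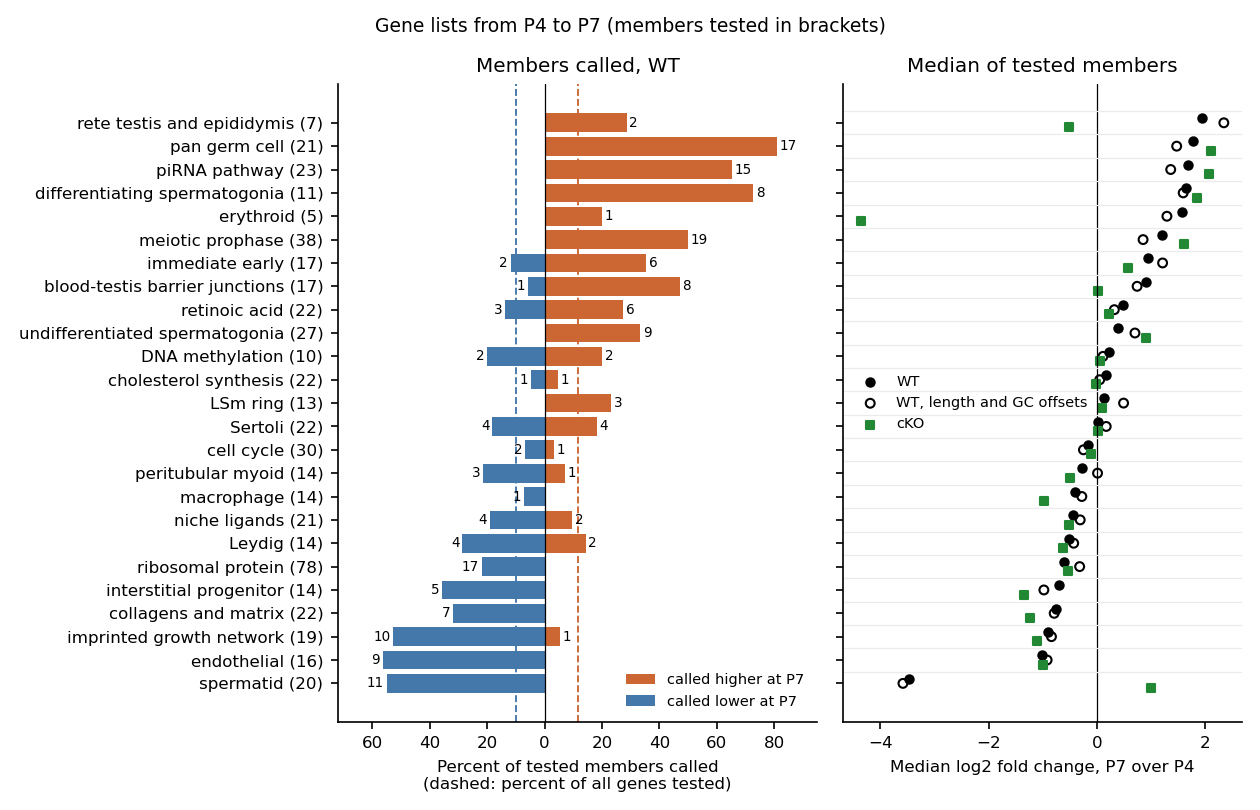
Left: percent of tested members of each list (number tested in brackets) called higher (right) or lower (left) at P7 in WT, with the number called beside each bar and dashed lines at the share of all tested genes, 11.8% and 9.97%. Right: median log2 fold change of the list in WT, in WT with length and GC offsets, and in cKO. Lists are ordered by their WT median. Rete testis and epididymis genes lie at the top with 2 of 7 called higher (median 1.93). Pan germ cell genes follow with 17 of 21 called higher (1.78), and spermatid genes lie at the bottom with 11 of 20 called lower.

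Most genes of differentiating spermatogonia rose. Of 11 tested, 8 rose and 0 fell, with a median log2 fold change of 1.65 against -0.03 over all genes, and with offsets 8 rose and 0 fell (median 1.59). Stra8, the retinoic acid target required for meiotic entry, was read at 4.63 and 3.18 CPM at P4 and at 65.8 and 68.6 CPM at P7. Both P7 values lay far above both P4 values, and the log2 fold change was 4.11 (SE 0.35, edgeR adjusted p = 0.000165), or 4.07 with offsets. Kit, the receptor of stem cell factor that marks differentiating spermatogonia, was read at 30.2 and 31.7 CPM at P4 and at 119 and 122 CPM at P7, with a log2 fold change of 1.96 (SE 0.20, adjusted p = 0.000405). The libraries of each age lay close together and did not overlap, and the value with offsets was 1.59. Sohlh2, a helix-loop-helix factor of spermatogonial differentiation, rose from 5.89 and 6.96 CPM to 40.1 and 44.4 CPM, and its partner Sohlh1 from 9.60 and 9.20 CPM to 29.2 and 29.9 CPM. The log2 fold changes were 2.72 (SE 0.30, adjusted p = 0.000487) and 1.65 (SE 0.27, adjusted p = 0.00285). Dnmt3b, a DNA methyltransferase of differentiating spermatogonia, rose by 1.54 (SE 0.20). When P4 WT library 1 was left out, 6 of the 11 rose.

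The upstream sequences of Stra8 and of 3 further genes that rose are shown because the RNA values turn on genes driven from them. Each is the 250 bases before the RefSeq start of the gene on its own strand, from the GRCm38.p6 promoter table. Stra8 lies on chromosome 6 from 34920948 to 34939344 on the plus strand, and its window is chr6:34920698-34920947. Sohlh1 lies on chromosome 2 from 25842997 to 25847248 on the minus strand (window chr2:25847249-25847498). Sycp3, a synaptonemal complex gene, lies on chromosome 10 from 88459587 to 88473236 on the plus strand (window chr10:88459337-88459586). Sycp1, which forms the transverse filaments of that complex, lies on chromosome 3 from 102818499 to 102936100 on the minus strand (window chr3:102936101-102936350). Capitals mark matches on either strand to AGGTCA, the half-site of nuclear receptors such as those for retinoic acid, in Stra8, and to CACGTG, an E-box hexamer that reads alike on both strands, in the others.
Stra8: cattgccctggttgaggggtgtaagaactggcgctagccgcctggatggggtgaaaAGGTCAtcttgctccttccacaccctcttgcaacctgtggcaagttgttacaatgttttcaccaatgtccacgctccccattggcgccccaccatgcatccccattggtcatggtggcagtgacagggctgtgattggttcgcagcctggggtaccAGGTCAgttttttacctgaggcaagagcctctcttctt
Sohlh1: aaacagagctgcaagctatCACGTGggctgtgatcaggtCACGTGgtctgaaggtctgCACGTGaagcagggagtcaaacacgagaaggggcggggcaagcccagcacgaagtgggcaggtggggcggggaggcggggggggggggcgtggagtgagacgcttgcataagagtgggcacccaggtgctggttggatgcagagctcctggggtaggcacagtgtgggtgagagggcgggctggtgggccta
Sycp3: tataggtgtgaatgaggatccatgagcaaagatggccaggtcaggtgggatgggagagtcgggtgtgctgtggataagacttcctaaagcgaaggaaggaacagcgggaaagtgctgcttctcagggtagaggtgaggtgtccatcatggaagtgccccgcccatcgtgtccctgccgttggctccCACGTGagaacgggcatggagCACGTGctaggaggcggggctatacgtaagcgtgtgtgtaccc
Sycp1: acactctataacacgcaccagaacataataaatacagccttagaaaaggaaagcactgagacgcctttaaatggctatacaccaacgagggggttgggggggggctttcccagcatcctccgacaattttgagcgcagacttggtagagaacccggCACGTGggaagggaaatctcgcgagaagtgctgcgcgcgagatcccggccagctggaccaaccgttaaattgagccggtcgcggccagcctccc
In the window of Stra8, AGGTCA occurred 2 times, beginning 194 and 38 bases before the start. CACGTG occurred 3 times before Sohlh1, beginning 231, 211 and 192 bases upstream, 2 times before Sycp3, at 64 and 43 bases, and 1 time before Sycp1, at 94 bases. Among all 32851 RefSeq windows of this length, 14.02% held AGGTCA and 6.02% held CACGTG on either strand. Only 1 motif was marked in each window, and AGGTCA also stands unmarked in the windows of Sohlh1 and Sycp3. These matches describe letters only. Shares within the gene lists are not given, because a window was matched for only 52 of 69 genes of the germ cell, meiotic and piRNA lists, under 80%.

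Genes of undifferentiated spermatogonia split. Of 27 tested, 9 rose and 0 fell (median 0.39), and 10 rose and 0 fell with offsets (median 0.70). Zbtb16, the PLZF factor of spermatogonial maintenance, was read at 6.95 and 11.97 CPM at P4 and at 79.3 and 76.5 CPM at P7 (log2 fold change 3.04, SE 0.32, edgeR adjusted p = 0.000407). Sox3, a factor of committed progenitors, went from 1.49 and 2.24 CPM to 31.1 and 28.2 CPM (3.98, SE 0.38, adjusted p = 0.000275). Neurog3, which marks progenitors leaving the stem state, had 2 and 5 reads in the P4 WT libraries and 98 and 107 in the P7 WT libraries (4.99, SE 0.53, adjusted p = 0.000431). For these 3 genes every P7 value was at least several times the highest P4 value. Lin28a, an RNA-binding protein of progenitors, rose by 3.52 (SE 0.39).

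Gfra1, Id4 and Nanos2, markers of the stem cell state named whatever their result, did not pass. Gfra1, the GDNF receptor of stem spermatogonia, was read at 9.33 and 16.5 CPM at P4 and at 14.1 and 13.9 CPM at P7, and the P7 values lay between those of P4. Its log2 fold change was 0.12 (SE 0.46, edgeR adjusted p = 0.871), with a negative sign without P4 WT library 1 (-0.24). Id4, an inhibitor of differentiation expressed in stem spermatogonia, was read at 19.5 and 25.8 CPM at P4 and at 19.2 and 20.4 CPM at P7. The log2 fold change was -0.19 (SE 0.32, adjusted p = 0.690), and without P4 WT library 2 it was 0.03. Nanos2, a translational repressor that keeps the stem state, had under 1 CPM in each of the 4 libraries (log2 fold change 1.14, SE 0.54, adjusted p = 0.146). It had 10 reads in each P4 WT library and 24 and 16 in the P7 WT libraries, without overlap. In cKO it rose by 2.51 (edgeR adjusted p = 0.000639). Standard errors of 0.32 to 0.54 leave moderate changes of these genes undetectable.

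The general germ cell genes rose as a group: 17 of 21 rose and 0 fell, with a median of 1.78 (15 and 0 with offsets, median 1.47). Dazl, an RNA-binding protein that licenses germ cell fate (chromosome 17, 50279393 to 50293620), was read at 58.9 and 120 CPM at P4 and at 849 and 850 CPM at P7. The P4 libraries differed by about the size of their lower value, and both P7 values lay several times above them. The log2 fold change was 3.25 (SE 0.32, edgeR adjusted p = 0.00036) and 2.36 with offsets, the exons of Dazl being low in GC (36.8%). Ddx4, the vasa helicase found in all germ cells, rose from 36.6 and 51.9 CPM to 190 and 181 CPM (2.07, SE 0.25, adjusted p = 0.000704). With offsets Ddx4 rose by 1.47. The groups did not overlap for either gene. The summed level of the 21 genes was 521 and 637 CPM at P4 and 2604 and 2594 CPM at P7.

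**Figure D3:**
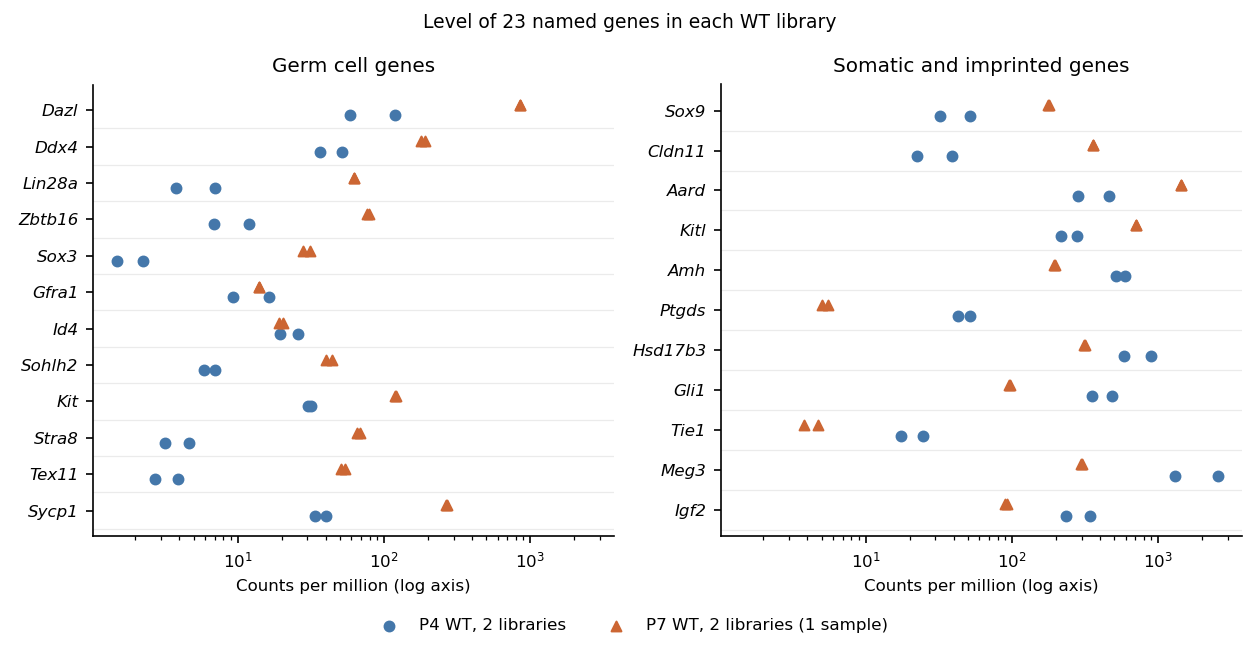
Level of 23 named genes in each WT library, in CPM on a log axis, with circles for the P4 libraries and triangles for the P7 libraries, which are 1 sample. Stra8, Sox3 and Tex11 lie at under 5 CPM at P4 and above 25 CPM at P7, while Gfra1 and Id4 overlap between the ages and Amh, Ptgds and Meg3 lie lower at P7.

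Genes of the piRNA pathway, which silences transposons in the male germ line, rose in 15 of 23 cases and fell in 0, with and without offsets (median 1.68, and 1.36 with offsets). Many of them, among them Tex15, Rnf17, Tdrd1 and Ddx4, also stand in the general germ cell list, so these counts are not separate results. Tex15, which takes part in piRNA-directed silencing, was read at 81.9 and 80.9 CPM at P4 and at 544 CPM in both P7 libraries. Its values within each age were almost equal, and the log2 fold change was 2.74 (SE 0.32, edgeR adjusted p = 0.000589). The Tudor domain genes Rnf17 (2.46, SE 0.27) and Tdrd1 (2.26, SE 0.25) rose too, from 14 to 19 CPM at P4 to 77 to 83 CPM at P7. With offsets the values were smaller, at 2.12 for Tex15, 1.68 for Rnf17 and 1.96 for Tdrd1. In the absence of P4 WT library 1, 11 of the 23 piRNA genes and 12 of the 21 general germ cell genes rose.

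Genes of meiotic prophase were already read at P4, and 19 of 38 rose and 0 fell (median 1.19). With offsets 12 rose (median 0.85), and without P4 WT library 1, 9 rose. Tex11, an X-linked crossover gene, was read at 2.71 and 3.92 CPM at P4 and at 54.3 and 51.3 CPM at P7 (log2 fold change 3.99, SE 0.43, edgeR adjusted p = 0.000431). Meioc, which with Ythdc2 sustains the meiotic programme, rose from 5.23 and 6.31 CPM to 41.7 and 42.9 CPM (2.87, SE 0.31, adjusted p = 0.000431). Sycp1 rose from 40.2 and 33.8 CPM to 269 and 266 CPM (2.85, SE 0.35, adjusted p = 0.0009), and Sycp3 from 16.02 and 15.4 CPM to 79.9 and 82.8 CPM (2.37, SE 0.33, adjusted p = 0.00136). In these 4 genes, as in Smc1b of meiotic cohesin (2.22, SE 0.26), no P7 library came near a P4 library. The values with offsets were smaller, at 3.195 for Tex11, 2.35 for Meioc, 1.56 for Smc1b, 1.90 for Sycp1 and 1.61 for Sycp3. The exons of Sycp1 and Sycp3 hold 36.7% and 35.7% GC. Rec8, the meiotic kleisin and a retinoic acid target, rose by 1.47 (SE 0.36, adjusted p = 0.0154), a call lost without P4 WT library 1 (adjusted p = 0.0613) or library 2 (0.0557).

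In the retinoic acid pathway 6 of 22 genes rose and 3 fell (median 0.48), and 6 rose and 1 fell with offsets. Beside Stra8 and Rec8, the retinoic acid binding protein gene Crabp1 rose from 3.38 and 6.34 CPM to 31.1 and 30.8 CPM (log2 fold change 2.67, SE 0.35, edgeR adjusted p = 0.00118). The plasma retinol carrier gene Rbp4 rose from 2.12 and 2.48 CPM to 7.18 and 9.22 CPM (1.84, SE 0.33, adjusted p = 0.00399). In both genes all P7 values lay above all P4 values. Of the 22, 3 rose and 0 fell without P4 WT library 1, and 4 rose without library 2.

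Among 10 tested genes of DNA methylation, 2 rose and 2 fell, with or without offsets and without either P4 WT library. Besides Dnmt3b, Tet3, which oxidises methylcytosine, rose by 1.11 (SE 0.21, edgeR adjusted p = 0.00577). Dnmt3l, the cofactor of de novo methylation in fetal germ cells, was read at 4.27 and 4.45 CPM at P4 and at 0.637 and 0.544 CPM at P7, and fell by 2.88 (SE 0.65, adjusted p = 0.0109). Zfp57, which protects imprints, was read at 221 and 139 CPM at P4 and at 50.4 and 51.2 CPM at P7, and fell by 1.83 (SE 0.34, adjusted p = 0.00494). For both genes the lower P4 library still lay well above P7.

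The Sertoli cell list did not move as one: 4 of 22 genes rose and 4 fell, with a median of 0.02 (6 rose and 2 fell with offsets, median 0.17, and 7 rose and 6 fell without P7 cKO library 1). Sox9, the determinant of Sertoli cells (chromosome 11, 112782210 to 112787757), was read at 32.5 and 51.9 CPM at P4 and at 178 CPM in both P7 libraries (log2 fold change 2.08, SE 0.26, edgeR adjusted p = 0.000875). Cldn11, a claudin of the blood-testis barrier, rose from 22.6 and 39.2 CPM to 358 and 357 CPM (3.53, SE 0.38, adjusted p = 0.000515), the largest rise of the Sertoli and junction genes named here. Aard, a transcript of Sertoli cells, rose by 1.95 (SE 0.29). P4 WT library 1 was the lower P4 library for all 3 genes, and P7 lay above both.

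In the other direction, Ptgds, a prostaglandin D synthase of the early testis, was read at 42.6 and 51.8 CPM at P4 and at 5.03 and 5.58 CPM at P7, and fell by 3.15 (SE 0.56, edgeR adjusted p = 0.00465). Amh, the anti-Müllerian hormone of immature Sertoli cells, was read at 514 and 597 CPM at P4 and at 194 and 197 CPM at P7, and fell by 1.51 (SE 0.28, adjusted p = 0.00499). The groups were apart for both. Amh has exons of high GC (65.4%), and with offsets its value was -0.82, which did not pass (adjusted p = 0.0601). Rhox5, an X-linked homeobox gene of Sertoli cells, was low in all 4 libraries, at 2.25 to 3.57 CPM (log2 -0.45, SE 0.80, adjusted p = 0.713).

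Junction genes of the blood-testis barrier rose in 8 of 17 cases and fell in 1 (median 0.90), and in 7 and 0 with offsets. The immunoglobulin-type adhesion genes Jam3 and Cxadr accompanied Cldn11. Jam3 was read at 60.1 and 69.5 CPM at P4 and at 152 and 144 CPM at P7 (log2 fold change 1.19, SE 0.21, edgeR adjusted p = 0.00417), and the groups were apart. Cxadr rose from 17.6 and 29.7 CPM to 83.2 and 82.5 CPM (1.81, SE 0.37, adjusted p = 0.00739). Cdh2, N-cadherin, rose by 1.19 (SE 0.28, adjusted p = 0.0133), a call not kept with offsets (0.70, adjusted p = 0.0551). Without P4 WT library 1, where fewer genes were called over all genes too, neither Cxadr (log2 1.47) nor Cdh2 (0.93) passed.

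Of 21 niche ligands, the signals by which somatic cells act on germ cells and on each other, 2 rose and 4 fell (median -0.45). With offsets the counts were again 2 and 4 (median -0.31), but Wnt6 passed only without offsets (adjusted p = 0.0326, against 0.764) and Igf1 only with them (0.0340, against 0.0861). Kitl, stem cell factor and the ligand of Kit, was read at 217 and 279 CPM at P4 and at 705 and 704 CPM at P7, a log2 fold change of 1.51 (SE 0.27, edgeR adjusted p = 0.00383). Ligand and receptor thus both passed as higher. The ages did not overlap in either, which adds little as the P7 WT libraries are 1 sample. Fst, the activin antagonist follistatin, rose by 1.41 (SE 0.35, adjusted p = 0.0160), a call lost without P4 WT library 1 (adjusted p = 0.0814). Wnt4 fell by 1.93 (SE 0.33, adjusted p = 0.00353) and Pdgfa, a growth factor for interstitial progenitors, by 1.87 (SE 0.33, adjusted p = 0.00384). In all 1 ligand rose and 2 fell without that library, and 8 fell without P7 cKO library 1.

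Interstitial genes went down or did not pass. Of 14 markers of interstitial progenitors, 0 rose and 5 fell (median -0.70), and the counts were equal with offsets (median -0.98). Gli1 and Gli2, effectors of hedgehog signalling, fell by 2.12 (SE 0.38, edgeR adjusted p = 0.00409) and 1.61 (SE 0.23, adjusted p = 0.00157). Gli1 was read at 484 and 353 CPM at P4 and at 96.5 and 96.4 CPM at P7, and the groups were far apart. The receptor gene Pdgfrb fell by 2.11 (SE 0.32, adjusted p = 0.00204). The list median moved with the P4 library kept, to -0.97 without library 1 and -0.36 without library 2.

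Leydig cell genes went both ways, with 2 of 14 up and 4 down (median -0.52). Hsd17b3, which makes testosterone from androstenedione, was read at 889 and 583 CPM at P4 and at 319 and 313 CPM at P7, and fell by 1.22 (SE 0.30, edgeR adjusted p = 0.0173). Nr5a1, the steroidogenic factor SF-1, fell by 1.27 (SE 0.23, adjusted p = 0.00421), from 409 and 379 CPM to 163 CPM in both P7 libraries. Both genes were lower in each P7 library than in each P4 library. Fdx1, which passes electrons to steroid hydroxylases, rose from 14.8 and 20.8 CPM to 38.8 and 40.3 CPM (1.15, SE 0.31, adjusted p = 0.0238), while its reductase gene Fdxr fell by 1.47 (SE 0.38, adjusted p = 0.0201). Star, which moves cholesterol into mitochondria, did not pass (0.75, SE 0.33, adjusted p = 0.120). Its adjusted p was 0.0162 when P7 cKO library 1 was left out, 0.0419 with the 10 libraries as separate samples and 0.0145 with the replicate block, and both of these fits count the P7 WT libraries as 2 samples. Insl3, a peptide hormone of mature Leydig cells, was read at 0.331 and 1.98 CPM at P4 and at 0.672 and 0.340 CPM at P7 (log2 -1.21, SE 1.15), and turned sign without P4 WT library 2 (0.60).

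The Leydig calls changed with the setting. With offsets 0 of 14 rose and 4 fell, with Fdx1 at 0.67 (adjusted p = 0.114) and Fdxr at -1.07 (0.0615). With P4 WT library 1 left out, 0 rose and 1 fell, and Hsd17b3 (adjusted p = 0.0958), Fdx1 (0.135) and Fdxr (0.103) did not pass. The list median was 0.09 without P4 WT library 2, and 4 rose and 6 fell without P7 cKO library 1.

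Genes of peritubular myoid cells, the contractile sheath of the tubules, showed 1 of 14 up and 3 down (median -0.28, and 0.01 with offsets). Des, desmin, fell from 41.6 and 36.3 CPM to 14.5 and 14.3 CPM (by 1.44, SE 0.26, edgeR adjusted p = 0.00439), without overlap. Lmod1, a nucleator of smooth muscle actin, rose from 4.005 and 4.42 CPM to 11.04 and 10.4 CPM (1.35, SE 0.30, adjusted p = 0.0105). Smtn (-1.05) and Tpm2 (-0.71) passed only without offsets, with adjusted p = 0.0606 and 0.169 under them. Leaving out P4 WT library 1 left 0 up and 1 down, with Lmod1 (adjusted p = 0.0682), Smtn (0.0791) and Tpm2 (0.1) no longer past the threshold. Nor did Tpm2 pass without P4 WT library 2 (0.0705), without P7 cKO library 2 (0.0516) or 3 (0.0528), or in the WT libraries alone (0.0785).

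Endothelial genes fell in 9 of 16 cases and rose in 0 (median -1.02), and in 10 and 0 with offsets (median -0.92). Tie1, an endothelial receptor kinase, was read at 24.8 and 17.6 CPM at P4 and at 3.82 and 4.76 CPM at P7, and fell by 2.30 (SE 0.31, edgeR adjusted p = 0.00122). Egfl7, a secreted factor of vessels, fell by 1.48 (SE 0.27), and the adhesion receptor gene Pecam1 by 1.19 (SE 0.26), from 32.3 and 30.9 CPM to 14.7 and 13.1 CPM. No P7 value of these genes reached a P4 value. The summed level of the 16 genes was 527 and 494 CPM at P4 and 266 and 263 CPM at P7. Eng, endoglin, fell by 1.04 (SE 0.24, adjusted p = 0.0133) but not without P4 WT library 1 (adjusted p = 0.0617), where 3 of 16 fell.

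Collagen and matrix genes fell in 7 of 22 cases and rose in 0 (median -0.76), and in 8 and 0 with offsets. Col6a2, a chain of microfibrillar collagen, was read at 628 and 684 CPM at P4 and at 201 and 193 CPM at P7, and fell by 1.74 (SE 0.41, edgeR adjusted p = 0.0143). Lamb1, a laminin chain of basement membranes, fell by 1.07 (SE 0.24), Col15a1 by 1.46 (SE 0.34) and Col5a1 by 1.35 (SE 0.32), all with lower values in each P7 library. The falls numbered 4 without P4 WT library 1 or library 2, and 11 without P7 cKO library 1. The macrophage list had 1 call in 14, Aif1 (log2 -1.65, SE 0.54, adjusted p = 0.0475), lost with offsets (0.0766), without P4 WT library 1 (0.197), and without P4 cKO library 2 or 3, P7 cKO library 2 or 3 or P7 WT library 2 (0.0513 to 0.0693). Without P7 cKO library 1, 4 macrophage genes fell.

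Imprinted genes of fetal growth fell in 10 of 19 cases and rose in 1, with a median of -0.91 (7 and 1 with offsets, median -0.84). Meg3, Mirg and Rian are maternally expressed noncoding RNAs of the Dlk1 locus on chromosome 12. Meg3 was read at 2586 and 1298 CPM at P4 and at 298 and 304 CPM at P7, and fell by 2.69 (SE 0.44, edgeR adjusted p = 0.00284). The P4 libraries differed by about the size of the lower one, and both lay several times above P7. Mirg fell by 2.46 (SE 0.41, adjusted p = 0.003) and Rian by 1.63 (SE 0.30, adjusted p = 0.00449). Igf2, a fetal growth factor, fell from 343 and 235 CPM to 89.3 and 93.0 CPM (by 1.66, SE 0.40, adjusted p = 0.0145). Its neighbour H19 fell from 505 and 541 CPM to 148 and 152 CPM (by 1.80, SE 0.50, adjusted p = 0.0271). Zdbf2, a paternally expressed gene, was the exception and rose from 24.9 and 37.6 CPM to 95.4 and 94.4 CPM (1.60, SE 0.30, adjusted p = 0.00494).

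Of these imprinted genes, H19 did not pass with offsets (-1.56, adjusted p = 0.0513), without P4 WT library 1 (adjusted p = 0.0792) or without library 2 (0.0564). Igf2 did not pass without library 1 (0.0714). The falls numbered 5 without library 1 and 6 without library 2.

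Transcripts of spermatids, cells that first appear weeks later, were read at trace levels at P4 and less at P7. Of 20 genes, 0 rose and 11 fell. Their median was -3.46, or -3.01 with the 7 genes lacking reads at P7 held at a floor of 3 reads over the summed P7 WT sample, against -3.58 with offsets and no floor. Smcp, a protein of the sperm mitochondrial capsule, had 64 and 58 reads in the P4 WT libraries and 0 in both P7 libraries, at least 36.8-fold lower. Prm2, a protamine that packs sperm DNA, had 76 and 38 reads at P4 and 0 at P7, at least 34.9-fold lower, though Prm2 did not pass with limma-voom (adjusted p = 0.0639). Odf1, of the outer dense fibres, went from 1.66 and 1.12 CPM to 0.0708 and 0.204 CPM and fell by 3.29 (SE 0.70, edgeR adjusted p = 0.00863). The bounds of Smcp and Prm2 cover counting error only. As both mates of a pair were probably counted, these bounds are probably too large. Acr, the acrosomal protease acrosin, fell by 2.66 (SE 0.56, adjusted p = 0.00844), with adjusted p = 0.0516 without P4 WT library 1, where 5 of 20 fell. The summed list, in which 1 widely expressed gene (Odf2, 197 and 152 CPM at P4) dominates, stood at 232 and 178 CPM at P4 and at 101 and 105 CPM at P7. In the cKO libraries the list ran the other way, with a median of 1.00, 2 genes up and 0 down.

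Few cell cycle genes passed: of 30, 1 rose and 2 fell (median -0.17). The share that fell was below that of all genes, but with offsets 1 rose and 4 fell (median -0.25), a share of falls above the 8.61% of all genes under offsets. Without P7 cKO library 1, 2 rose and 4 fell. Mki67, a marker of dividing cells, was read at 1027 and 907 CPM at P4 and at 583 and 581 CPM at P7 and did not pass (log2 -0.73, SE 0.28, edgeR adjusted p = 0.0783). It passed with offsets (-1.06, adjusted p = 0.0493), with DESeq2 (0.0425), without P7 cKO library 1 (0.0324), with 10 separate libraries (0.0104) and with the replicate block (0.0086). Cdk1, the mitotic kinase, fell by 0.92 (SE 0.26, adjusted p = 0.0276), Ube2c by 0.71 (adjusted p = 0.0414), and the mitotic cyclin gene Ccnb1 rose by 0.81 (adjusted p = 0.0441). Each of these calls was lost without P4 WT library 1 (adjusted p = 0.116, 0.138 and 0.145), and those of Ube2c and Ccnb1 also with offsets (0.166 and 0.265). Neither kept its call without P4 WT library 2 (0.0642 and 0.094), P4 cKO library 1 (0.0544 and 0.06) or 2 (0.0619 and 0.0696), or P7 cKO library 2 (0.0571 and 0.0553) or 3 (0.059 and 0.0521). Ccnb1 was also lost without P4 cKO library 3 (0.0557) and P7 WT library 2 (0.0529) and with library totals (0.0599), and Ube2c in the WT libraries alone (0.0786) and with no filter (0.0578).

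Ribosomal protein genes fell in 17 of 78 cases and rose in 0 (median -0.61). With offsets 12 fell (median -0.32), and without P4 WT library 1, 2 fell, against 11 without P4 WT library 2 or P4 cKO library 2 and 33 without P7 cKO library 1. Rpl29 was read at 427 and 429 CPM at P4 and at 162 and 160 CPM at P7 and fell by 1.41 (SE 0.24, edgeR adjusted p = 0.0034). Rpl36, Rpl28 and Rpl31 fell by 1.12 to 1.56, but not without P4 WT library 1 (adjusted p = 0.0901, 0.0828 and 0.0819), and with offsets Rpl36 was at -0.66 and did not pass (0.0638). Many of these genes have near-identical copies in the genome, so their counts are uncertain. Among 13 genes of the LSm family 3 rose, Lsm14b (0.76, SE 0.20), Lsm8 (0.99, SE 0.29) and Lsm14a (0.92, SE 0.27), and 0 without P4 WT library 1 (adjusted p = 0.0764, 0.161 and 0.174). Lsm14b did not pass without P4 WT library 2 (0.0629) or in the WT libraries alone (0.0531), nor Lsm14a without P4 cKO library 2 (0.0535) or with offsets (0.117).

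Of 22 genes of cholesterol synthesis, 1 rose and 1 fell (median 0.17), both lost with offsets: the synthase gene Hmgcs1 (log2 1.07, edgeR adjusted p = 0.0235, and 0.124 with offsets) and the mevalonate kinase gene Mvk (-0.94, 0.0425, and 0.297). Neither passed without P4 WT library 1 (0.118 and 0.186), and Mvk did not without P4 cKO or P7 cKO library 2 or 3 (0.056 to 0.0586). Of 17 immediate early genes, which respond within minutes to handling or signals, 6 rose and 2 fell (median 0.94), and 6 rose and 0 fell with offsets. Btg2, an antiproliferative gene, rose from 12.2 and 22.4 CPM to 52.5 and 52.6 CPM (1.60, SE 0.33, adjusted p = 0.00722), and the stress factor Atf3 from 2.65 and 2.83 CPM to 12.9 and 10.8 CPM (2.11, SE 0.44, adjusted p = 0.00774). All P7 values of both exceeded P4. Jun (1.48) and the phosphatase gene Dusp1 (1.18) rose too. Only 1 of 17 rose, and 0 fell, without P4 WT library 1, where Atf3 (adjusted p = 0.0596), Jun (0.153) and Dusp1 (0.101) did not pass. Without P4 WT library 2, 6 rose and 0 fell, and without P7 cKO library 1, 10 rose.

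The largest rises over all genes again included germ cell genes. Tbx22, a T-box factor known from palate development, was read at 0.662 and 0.383 CPM at P4 and at 32.2 and 28.8 CPM at P7 (log2 fold change 5.87, SE 0.80, edgeR adjusted p = 0.00153). Beside Neurog3, the 12 genes of the naming rule held Mei4 (4.25), needed for meiotic DNA breaks, the germ cell genes Usp26 (4.24), a deubiquitinase, and Dmrtb1 (4.23), a regulator of the switch from mitosis to meiosis. Rspo2, a secreted amplifier of Wnt signals, rose by 4.91 (SE 0.63), from 0.199 and 0.118 CPM to 5.31 and 4.35 CPM. Btnl10 (5.71), Kbtbd8 (4.39), Lpar3 (4.32), a receptor of lysophosphatidic acid, Zfp936 (4.16) and Vsig1 (4.13) completed the set with Gpx5. The call of Btnl10 was lost without P4 WT library 1 (adjusted p = 0.0701).

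Gpx5, a glutathione peroxidase secreted by the epididymis, was read at 1.13 and 0.737 CPM at P4 and at 19.5 and 20.3 CPM at P7 (log2 fold change 4.42, SE 1.36, edgeR adjusted p = 0.0473). Of 7 markers of the rete testis and epididymis, 2 rose with it, Lcn5 (3.36, SE 1.07) and Adam7 (3.42, SE 1.09), and 0 fell. Their summed level was 17.5 and 9.87 CPM at P4 and 24.4 and 22.5 CPM at P7, and no marker of the list was at 0 in all WT libraries. The part of adhering epididymal tissue in these calls was not tested. None of the 3 calls was kept with offsets (adjusted p = 0.0631, 0.0529 and 0.113) or without P4 WT library 1 (0.198, 0.164 and 0.164) or library 2 (0.172, 0.145 and 0.152). Gpx5 was also lost with RLE factors (0.0516), with library totals (0.0574), with no filter (0.129) and without P7 cKO library 2 (0.0524). Lcn5 was lost without P4 cKO library 1 (0.0556), without P7 WT library 2 (0.0668) and without P7 cKO library 2 (0.062), and Adam7 without P4 cKO library 3 (0.0584) or P7 WT library 1 (0.0519), with library totals (0.0505) and with no filter (0.0801). Alas2, of haem synthesis in red cells, rose by 1.56 (SE 0.44, adjusted p = 0.0279), 1 of 5 tested erythroid genes, but not without P4 WT library 1 (0.102) or library 2 (0.0844).

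Among the largest falls, 2 genes had no read at P7, H60b and Prm2. H60b, a ligand of the NKG2D immune receptor, had 95 and 186 reads at P4 and was at least 82.9-fold lower by the floor of 3 reads. This bound too is probably too large, as both mates of a pair were probably counted. Pnmt, which makes adrenaline from noradrenaline, was read at 46.4 and 39.0 CPM at P4 and at 0.425 and 0.272 CPM at P7, and fell by 6.93 (SE 0.64, edgeR adjusted p = 0.000275). Ccl17, a chemokine, fell from 19.96 and 15.5 CPM to 0.212 and 0.408 CPM (by 5.81, SE 0.53, adjusted p = 0.000224). Both genes were well read at P4 and nearly unread at P7. Klkb1, plasma kallikrein, fell by 5.09 (SE 0.65), Cnga1, a cyclic nucleotide-gated channel, by 6.47 (SE 0.97) and Pdyn, the precursor of dynorphins, by 5.33 (SE 0.85). The others were Brinp3 (-6.15), Mylk2 (-5.41), Lamp5 (-5.36), the homeobox gene Gsc (-5.21) and Tex35 (-4.70), all at 14 CPM or less at P4. For Brinp3 the call was lost without P4 WT library 1 (adjusted p = 0.0673) and with limma-voom (0.085).

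The same course was then read in the cKO libraries. They share no sample with the WT course, but both courses came from the same fit with a shared spread for each gene. Their calls are therefore not independent. There 2663 genes rose (14.5%) and 2709 fell (14.7%), so that 29.2% were called. Of the 4016 genes called in WT, 3332 had the same sign in cKO and 1876 were called there in the same direction. The latter are 46.7% of the WT calls and 34.9% of the 5372 cKO calls. The opposite sign was found for 684, of which 50 were called in cKO. The share of all tested genes with the same sign is not given. In WT and cKO, Stra8 rose by 4.11 and 3.82, Kit by 1.96 and 1.85, Zbtb16 by 3.04 and 3.27, Ddx4 by 2.07 and 1.93, and Sycp1 by 2.85 and 2.47. The plot of the courses shows these germ cell genes near the line of equal change, by values without offsets. With offsets the WT values were 4.07 for Stra8, 1.59 for Kit, 3.25 for Zbtb16, 1.47 for Ddx4 and 1.90 for Sycp1. The cKO values with offsets are not given. Sox3 (3.98 and 5.69) and Sohlh1 (1.65 and 2.95) had larger values in cKO, with an edgeR adjusted p of the difference of 0.0854 and 0.0798.

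Other named genes had larger values in WT. Sox9 rose by 2.08 in WT against 0.20 in cKO (adjusted p = 0.434 there), Cxadr by 1.81 against -0.01, Jam3 by 1.19 against 0.01, Kitl by 1.51 against 0.11 and Zdbf2 by 1.60 against -0.08. For the difference itself, however, edgeR called 0 of 18419 genes (0%), with a smallest adjusted p of 0.0626, reached by Sox9 and Zdbf2 among others, although 4619 genes had an unadjusted p under 0.05. With offsets edgeR again called 0 genes, and 3831 had an unadjusted p under 0.05. Without offsets, DESeq2 called 1665 genes and limma-voom 0 on the same 9 samples. The edgeR count was 716 without P4 WT library 2, 1455 without P7 cKO library 1 and 1 without P7 cKO library 2. The median SE of the difference was 0.41, and no gene is called particular to WT.

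**Figure D4:**
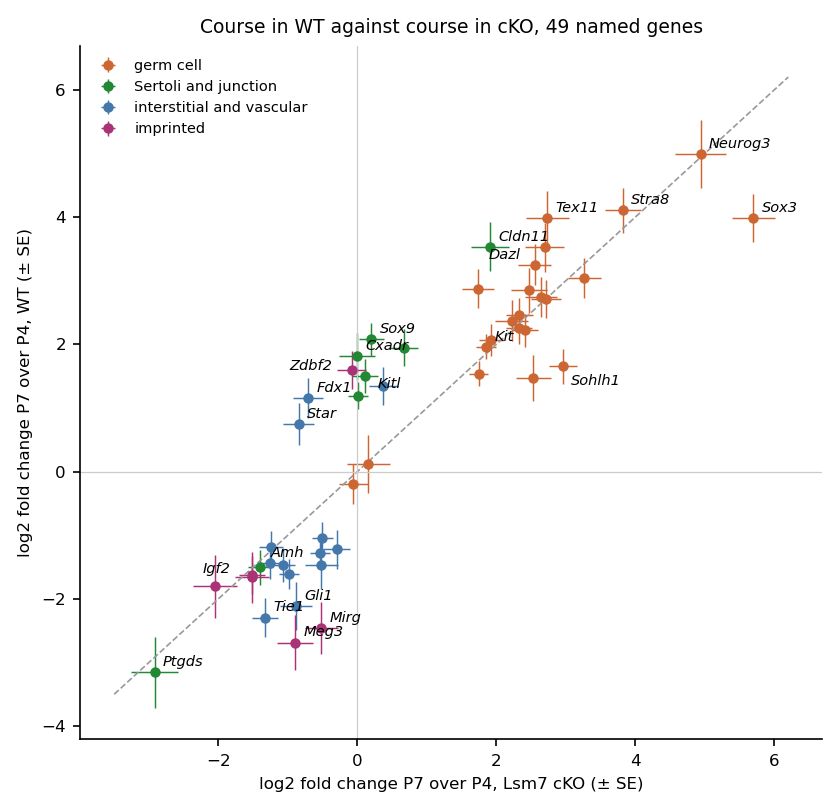
Log2 fold change from P4 to P7 in WT (y axis) against that in cKO (x axis) for 49 named genes, coloured by group. Bars show 1 SE and the dashed line equal change. All values are without offsets. Germ cell genes such as Stra8 (4.11 in WT, 3.82 in cKO) and Kit lie near the line, while Sox9 (2.08 and 0.20), Cxadr and Kitl lie above it.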

How the data were processed

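The authors deposited a table of raw read counts per gene, with gene coordinates and exon lengths, as its header and whole-number values show. The submitters' processing notes name STAR 2.7.11a, Trim Galore 0.6.10, SAMtools 1.6, featureCounts, Subread 2.0.6, MultiQC 1.14 and FastQC 0.12.1, and the build GRCm38. Strand setting and treatment of multiply mapped reads are not stated in these sources, so counts of multicopy, overlapping and antisense genes are uncertain.

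The 4 WT and 6 cKO libraries were grouped by their titles, and the 2 P7 WT libraries were summed, which left 9 samples. Of 25239 genes, 3425 had no read, and filterByExpr defaults (minimum count 10, minimum total 15) kept 18419. TMM-scaled counts were fitted in R 4.3.3 by edgeR 4.0.16, with a mean for each group, and contrasts were given its robust quasi-likelihood F test (5 residual degrees of freedom, common biological coefficient of variation 0.228). Two-sided p-values were adjusted over all genes tested (Benjamini-Hochberg, threshold 0.05). The SE was taken as the size of the log2 fold change over the root of F. CPM values use TMM-scaled totals. Folds for genes with 0 reads at P7 are against a floor of 3 reads in the summed P7 WT sample, 0.052 CPM. With both mates of a pair probably counted, this floor is probably too low. GC content was the mean over the GENCODE M21 transcripts of a gene (24728 genes with a value), and exon length came from the deposited table. Offsets for both were fitted per sample with mgcv 1.9.3. Scripts were tested on simulated counts.

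The 117 genes chosen for naming are the 12 highest and 12 lowest log2 fold changes among called genes with an average log2 CPM of at least 1, no overlap between the ages and an assigned symbol, up to 4 called members of each list with the smallest p, and 20 genes given whatever their result. One of them is not reported here, though it counts in the totals. The comparison, the 25 lists (523 of 526 symbols matched) and the rule were chosen with earlier results of these data known. Other genes named from the lists were chosen after their values were seen. Alternatives were RLE factors, library totals, no filter, a minimum count of 50, DESeq2 1.42.0, limma-voom (limma 3.58.1), WT libraries alone, 10 libraries as separate samples, the replicate number as a block, length and GC offsets, and each library left out.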

Additional observations from a re-analysis of the deposited data

How the results depend on the processing

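Of the 117 genes chosen for naming, 74 kept their direction and side of the threshold under all 20 alternatives, and the fewest (81) did so without P4 WT library 1, where 35 calls were lost. Leaving out P4 WT library 2 lost 10 calls. Uncalled genes turned sign between the sets without 1 library: Gfra1 from -0.241 to 0.585, Id4 from -0.391 to 0.026, Insl3 from -1.976 to 0.598 and Lsm7 from -0.12 to 0.365. With length and GC offsets 17 calls were lost. Leaving out 1 library at a time gave 614 to 3290 genes higher, 573 to 3025 lower and 0 to 1455 for the difference between the courses, with 614 and 573 without P4 WT library 1 and 3290 and 3025 without P7 cKO library 1. Taking the 10 libraries as separate samples gave 3582 higher, 3697 lower and 3105 for the difference. With the replicate number as a block these were 3931, 3881 and 4311. Whether the numbers pair the WT samples cannot be read from these data. The deviations of same-numbered P4 WT and P7 WT libraries had r = 0. As the P7 WT libraries differ by about counting noise, their deviations could not show a pairing. Both fits count the P7 WT libraries as 2 samples. The difference was also 3 genes with library totals, 431 without a filter and 1665 with DESeq2, and in the WT libraries alone it could not be fitted. The other counts of genes higher and lower stayed within 1.5 times those reported. Depth limits genes under about 1 CPM, such as Neurog3 with 2 and 5 reads at P4.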

Other observations

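Some gene families and a chromosome outside the lists were examined after the values were seen, and are given as values. Over all genes tested in WT, 11.8% rose and 9.97% fell. Of 27 keratin genes tested, 0 rose and 8 fell from P4 to P7 in WT, with a median log2 fold change of -1.73 (-1.45 with length and GC offsets, -0.86 in cKO). Of 11 X-linked genes known from germ cells, 9 rose and 0 fell, with a median of 2.90 (2.98 with offsets, 2.92 in cKO). This group was picked by hand and holds Usp26 and Tex11, so it is not independent of the results above. Of 24 X-linked Rhox genes, 2 rose and 0 fell, both shares below those of all genes, with a median of -0.1 (1.3 in cKO). Of 383 zinc finger genes of the Zfp type, 90 rose and 25 fell (median 0.41), but with offsets the median was 0.07 and their median GC content was 46.5%. Of 46 replication-dependent histone genes, 0 passed in either direction by edgeR, at a median of 0.72 (1.25 with offsets, 1.35 in cKO), and their counts are uncertain because the copies are near-identical. Of 6 genes for insulin-like growth factor binding proteins, 0 rose and 3 fell, with a median of -0.63 (-0.14 with offsets, -1.07 in cKO).

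Among 737 genes tested on the X chromosome, 187 rose (25.4%) and 35 fell (4.75%), against 11.8% and 9.97% of all genes. Their median log2 fold change was 0.44, but 0.11 with length and GC offsets and -0.01 in cKO, and their median GC content of 46.5% was lower than that of each autosome.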
